A study of Homo sapiens with 12 samples.

Results

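The genes described here encode heat shock protein 90 (HSP90) and its helper proteins, the mitochondrial chaperonin, a small heat shock protein, the collagen chaperone and heat shock transcription factors (HSF). They are HSP90AA1, HSP90AB1, AHSA1, CHORDC1, HSPD1, HSPE1, HSPB1, SERPINH1, HSF1 and HSF2, 10 of the 44147 genes listed in the files. The choice was by gene symbol, but it was made with earlier results of these data known. All 10 passed the filter on low counts and were among the 23045 genes tested. RNA was sequenced from CCRF-CEM, an established T lymphoblast leukemia line, in 4 groups of 3 libraries. The groups are SLFN11 gene knockout cells labelled prexasertib, knockout cells labelled DMSO, parent (wild-type) cells labelled prexasertib and parent cells labelled DMSO. Prexasertib inhibits CHK1, a checkpoint kinase of the replication stress response, and was given at 100 nM for 6 h, and DMSO is its solvent, for which the labels give no time. All cells grew in the same serum-containing medium. The number of knockout clones is not in the labels. Nor do they say if a group's 3 libraries are from separate cultures, so a p-value covers the spread among these libraries only, which may be technical.

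The labels conflict with the files. All 12 titles carry a library name that belongs to a file of the other treatment in the same line. The treatment given here is that of the record holding the file, written as labelled prexasertib or labelled DMSO. Should the library names be right, every treatment difference and every interaction turns round in sign, and knockout against parent in DMSO becomes knockout against parent in prexasertib and the reverse. Exonic reads summed to 47887791 to 77548202 per library. Replicate 1 of parent cells labelled prexasertib stood apart, with an intronic share of all reads of 30.3%, against 23.9 to 26.4% in the other 11 libraries. SLFN11 RNA averaged 88.4 ± 3.0 and 67.2 ± 1.68 CPM (reads scaled to library size) in knockout cells labelled prexasertib and DMSO, against 117 ± 1.31 and 95.6 ± 4.65 CPM in the parent groups (SD, n = 3 each). In knockout against parent cells it differed by -0.41 and -0.51 on the log2 scale (SE 0.05 each), and SLFN11 transcripts were still present in the knockout. All 7 T-lineage markers examined (CD3D, CD3E, CD3G, CD7, CD5, LCK and CD247) averaged above 1 CPM in every group. Their summed level was 1398 to 1418, 1418 to 1441, 1192 to 1295 and 1104 to 1122 CPM in the same order of groups. Of 5 B-cell markers CD79A and CD79B averaged above 1 CPM and MS4A1 had no reads, and their summed level was 41.7 to 44.4, 41.8 to 44.7, 31.1 to 34.4 and 24.6 to 26.6 CPM. Of 4 epithelial markers EPCAM and KRT8 averaged above 1 CPM, and the sum was 10.6 to 12.23 CPM in knockout libraries and 2.32 to 3.44 CPM in parent libraries. None of 5 myeloid, 5 fibroblast and 3 erythroid markers averaged 1 CPM in any group, their sums were at most 1.67 CPM, and DCN and LUM of the fibroblast list had no reads. The part of these marker differences in the results was not tested. In bulk RNA, a change in the number of cells of a type and a change of RNA per cell cannot be told apart.

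HSP90 is an abundant cytosolic chaperone that folds and stabilises kinases, steroid receptors and other client proteins, working through an ATP-driven cycle that helper proteins called cochaperones tune. Heat shock factor 1, the protein of HSF1, is held inactive by chaperones in unstressed cells. When unfolded proteins occupy those chaperones it forms trimers, binds heat shock elements, which are repeats of the unit GAA in alternating orientation, and raises transcription of chaperone genes. CHK1 itself is among the kinases known as HSP90 clients.

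Promoter stretches that carry heat shock elements are described next. The members were picked as heat shock and chaperone genes, so the presence of these elements is not independent of the choice. The longest run of units in each such gene is shown, with both of the equal runs of HSP90AB1. RefSeq promoter windows (GRCh38.p14, 250 bases before the transcript start to 50 after) were at hand for 9 of the 10 genes, in 16 windows. Only the 250 bases before the start were searched, for these genes and for all others. The motifs searched were the 2-unit forms GAANNTTC and TTCNNGAA, each its own reverse complement, and the 3-unit forms, which are GAANNTTC followed by NNGAA and TTCNNGAA followed by NNTTC and so overlap the 2-unit forms. A 3-unit form was found in at least 1 window of 5 genes, HSP90AA1, HSP90AB1, HSPD1, SERPINH1 and CHORDC1. A 2-unit form was found in 6, these 5 and HSPB1. Over the whole table of 35116 windows, 152 of 27305 genes (0.557%) had a 3-unit form and 3813 a 2-unit form in the searched bases of a window. No match was found in the searched bases of AHSA1, HSF2 and HSPE1, which says only that these letters are not there. Capitals below mark the matched units, sequences read 5′ to 3′ on the gene's strand, and bases are counted back from the transcript start.
HSP90AA1, chr14:102087104-102087133, minus strand, bases -89 to -60: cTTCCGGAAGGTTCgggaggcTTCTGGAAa
HSP90AB1, chr6:44247770-44247798, plus strand, bases -173 to -145: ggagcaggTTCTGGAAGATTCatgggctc
HSP90AB1, chr6:44247823-44247851, plus strand, bases -120 to -92: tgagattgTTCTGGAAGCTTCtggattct
HSPD1, chr2:197500062-197500090, minus strand, bases -250 to -222: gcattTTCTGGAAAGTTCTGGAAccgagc
SERPINH1, chr11:75562169-75562197, plus strand, bases -84 to -56: ttccaactTTCCAGAAGTTTCtcgggacg
CHORDC1, chr11:90223084-90223112, minus strand, bases -63 to -35: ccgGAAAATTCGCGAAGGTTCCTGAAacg
HSPB1, chr7:76302480-76302509, plus strand, bases -193 to -164: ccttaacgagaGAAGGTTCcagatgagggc
The CHORDC1 stretch holds 5 units in a row and the HSPD1 stretch 4, HSPB1 has 2, and the others have runs of 3. CHORDC1 has a further pair of single 2-unit matches in its window, which are not shown. HSP90AB1 has a pair of such runs in 1 window. HSPD1 and HSPE1 are divergent neighbours that start 539 bases apart, counted from the HSPD1 start whose window holds the element, and the printed HSPD1 stretch lies between these starts, 289 bases from that of HSPE1. Another HSPD1 start is 105 bases from that of HSPE1, and the stretch lies downstream of it. The HSPD1 stretch overlaps annotated exons of HSPD1 and HSPE1. Those of HSP90AA1, SERPINH1 and CHORDC1 overlap exons of their own gene.

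Within the cell, the members span a wide range of levels. Per length, in TPM (the length-scaled abundance the authors computed from exonic reads), HSP90AA1 (hg19 chr14:102547075-102606036), the stress-inducible cytosolic HSP90, and HSP90AB1 (chr6:44214824-44221620), its constitutive partner, were at the top in every group. HSP90AA1 averaged 516, 556, 472 and 291 TPM in knockout cells labelled prexasertib, knockout cells labelled DMSO, parent cells labelled prexasertib and parent cells labelled DMSO. HSP90AB1 averaged 530.1, 509, 444 and 363 TPM in the same order. In parent cells labelled DMSO every library had more HSP90AB1 than HSP90AA1. In knockout cells labelled DMSO the genes came close, with 528.8 TPM in the lowest library of HSP90AA1 and 528.6 TPM in the highest of HSP90AB1. In both labelled prexasertib groups the libraries overlapped between these genes. In parent cells labelled prexasertib HSP90AA1 had 525, 453 and 438 TPM and HSP90AB1 415, 459.9 and 458 TPM, and the higher mean of HSP90AA1 there rests on replicate 1. HSPD1 and HSPE1, the chaperonin and its lid, followed at 119 to 212 and 40.5 to 73.2 TPM over the group means. AHSA1 lay at 30.5 to 55.9, HSPB1 at 14.97 to 25.3 and CHORDC1 at 11.1 to 17.9 TPM. HSF2 lay at 12.9 to 15.5, HSF1 at 10.6 to 13.3 and SERPINH1 at 1.34 to 2.93 TPM. The ranges of HSPE1 and AHSA1 overlap, as do neighbouring ranges from HSPB1 to HSF1, so these places in the order are not firm.

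**Figure D1:**
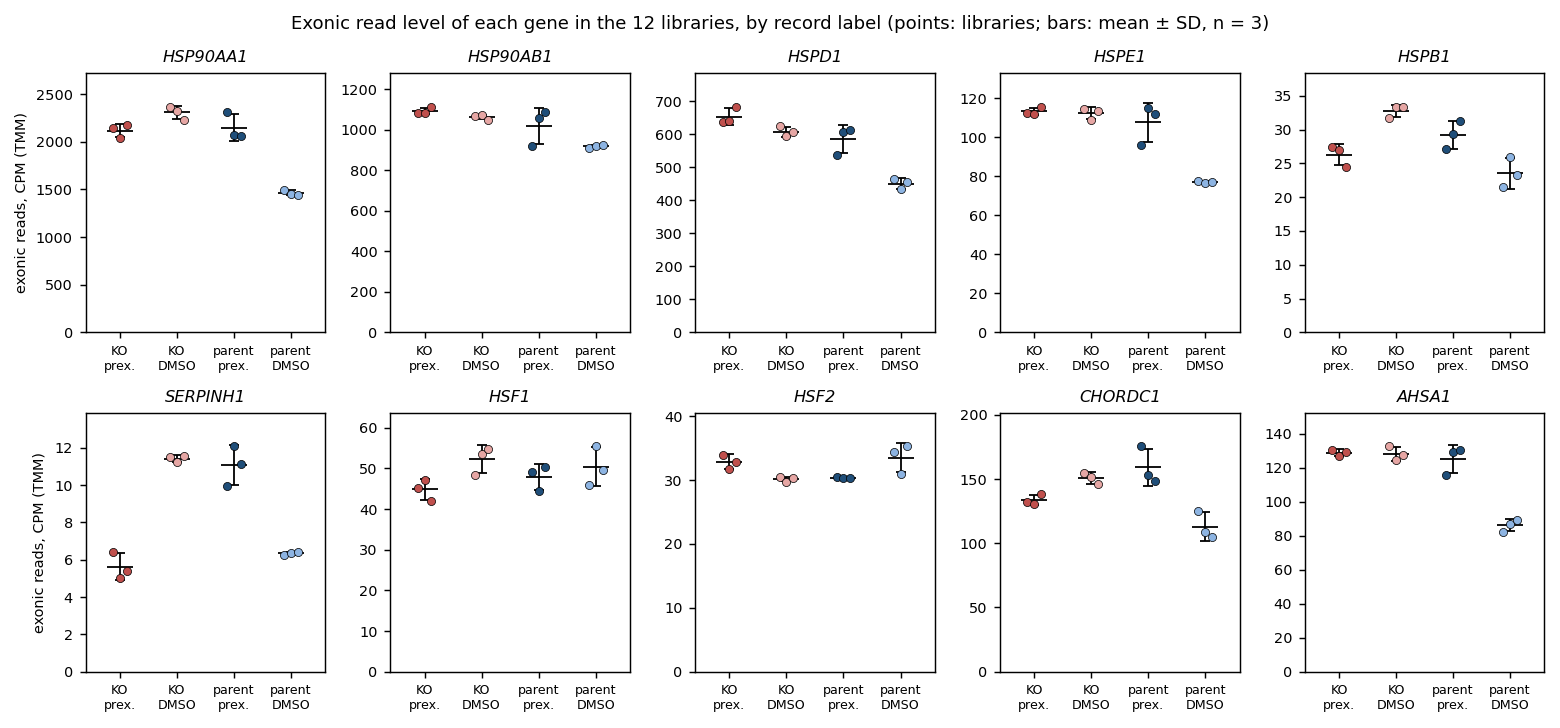
Exonic reads of each gene in CPM on library sizes scaled by TMM, from 0, in the 12 libraries grouped by record label, with knockout (KO) groups left of parent groups and prexasertib (prex.) left of DMSO; points are libraries and bars the mean ± SD (n = 3). For SERPINH1 the 3 libraries of knockout cells labelled prexasertib lie at 5.01 to 6.42 CPM, below the 11.22 to 11.5 CPM of knockout cells labelled DMSO, while in parent cells the labelled prexasertib libraries lie above the labelled DMSO libraries.

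In parent cells, the labelled prexasertib libraries had more RNA of 8 of the 10 genes and less of none, where 18.2% of all genes tested were called higher and 18.2% lower (edgeR quasi-likelihood test, Benjamini-Hochberg adjusted p of at most 0.05, here and below). The median difference over the 10 genes was 0.43 on the log2 scale, against 0.04 over all genes tested. The groups did not overlap for 8 of the 10, beside 43.3% of all genes tested. This set is not the same 8: it leaves out HSP90AB1 and takes in HSF2, which lay lower and was not called. Under the library names, the 8 genes called higher would be lower with the inhibitor. Without replicate 1 of the labelled prexasertib group, 8 were called higher and 1, HSF2, lower (background 17.1% and 19.5%).

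HSP90AA1 had 2313, 2072 and 2066 CPM in parent cells labelled prexasertib and 1498, 1458 and 1442 CPM in parent cells labelled DMSO. Every labelled prexasertib library was above every labelled DMSO library, and the groups differed by 0.55 on the log2 scale (SE 0.05, edgeR adjusted p = 7.7e-09). HSP90AB1 had 919, 1057 and 1086 CPM against 908, 921 and 925 CPM. There replicate 1 of the labelled prexasertib group fell among the labelled DMSO libraries, and the difference of 0.15 (SE 0.06, edgeR adjusted p = 0.031) was lost without any 1 of 11 of the 12 libraries, at values of 0.10 to 0.20; without replicate 1 of the labelled prexasertib group it was 0.20 and called. The inducible gene thus differed more than the constitutive one in these libraries, a contrast that was not tested directly.

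The cochaperone genes rose with HSP90AA1. AHSA1 (chr14:77924213-77935817) encodes the main activator of the HSP90 ATPase and had 116, 129.5 and 131 CPM in parent cells labelled prexasertib, against 82.4, 87.2 and 89.6 CPM in those labelled DMSO. The groups did not overlap and differed by 0.54 (SE 0.05, edgeR adjusted p = 8.9e-09). CHORDC1 (chr11:89934328-89956532) encodes a zinc-binding HSP90 cochaperone and had 176, 153 and 149 CPM, against 125, 109 and 105 CPM. Its groups did not overlap either, and the difference was 0.49 (SE 0.06, edgeR adjusted p = 1.2e-06).

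The chaperonin pair folds imported proteins in the mitochondrial matrix, with HSPD1 forming the barrel and HSPE1 its lid. HSPD1 (chr2:198351305-198381461) had 538, 607 and 615 CPM in parent cells labelled prexasertib, against 465, 434 and 455 CPM in those labelled DMSO. HSPE1 (chr2:198364718-198368181) had 95.9, 115 and 112 CPM, against 77.7, 76.4 and 76.8 CPM. Neither gene's groups overlapped, and replicate 1 of the labelled prexasertib group was the lowest of its group for both. The differences were 0.38 (SE 0.05) and 0.48 (SE 0.06), with edgeR adjusted p values of 4.1e-06 and 1.4e-07. In the annotation of the files HSPE1 lies inside the span of HSPD1 and of the HSPE1-MOB4 readthrough gene, and 0% of its exonic reads were outside other genes, so its values are uncertain. For each of the other 9 genes at least 98.8% of exonic reads lay outside other genes.

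HSPB1 (chr7:75931861-75933612), a small heat shock protein that holds unfolded proteins without ATP, had 27.1, 29.3 and 31.2 CPM in parent cells labelled prexasertib and 21.4, 26.0 and 23.2 CPM in those labelled DMSO. The groups were separate but close, and the difference was 0.31 (SE 0.07, edgeR adjusted p = 0.0010). SERPINH1 (chr11:75273101-75283828), the endoplasmic reticulum chaperone of collagen known as HSP47, had 9.95, 12.1 and 11.15 CPM, against 6.26, 6.36 and 6.42 CPM. It rose 1.74-fold without overlap, by 0.80 on the log2 scale (SE 0.10, edgeR adjusted p = 2.7e-07). Its level was low in every group, with 288 to 902 exonic reads per library.

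The transcription factor genes did not pass the test in parent cells. HSF1 (chr8:145515280-145538385), the master regulator of the heat shock response, had 49.1, 44.4 and 50.3 CPM in parent cells labelled prexasertib and 45.9, 55.4 and 49.7 CPM in those labelled DMSO, groups that overlapped (difference -0.07, SE 0.07, edgeR adjusted p = 0.45). HSF2 (chr6:122720691-122754264), a relative that can form mixed trimers with HSF1, had 30.4, 30.4 and 30.4 CPM, against 34.4, 30.9 and 35.3 CPM (difference -0.14, SE 0.06, edgeR adjusted p = 0.063). HSF2 was called lower in 6 of the 12 fits that left out 1 library, those without replicate 2 of parent cells labelled DMSO, replicate 1 of parent cells labelled prexasertib, replicates 1 and 2 of knockout cells labelled DMSO, and replicates 2 and 3 of knockout cells labelled prexasertib (values of -0.24 to -0.16). HSF1 protein is known to be regulated mainly by its binding partners and by phosphorylation.

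In knockout cells, 3 of the 10 genes had less RNA in the labelled prexasertib libraries and none had more, where 6.83% of all genes tested were called lower and 6.11% higher. The 3 were SERPINH1, HSPB1 and HSF1. The median over the 10 genes was -0.06 on the log2 scale, against -0.0020 over all genes tested. Under the library names, these 3 genes would be higher with the inhibitor. Without replicate 1 of parent cells labelled prexasertib, which enters this comparison through the shared estimate of spread, 5 genes were called lower and 1 higher (background 9.63% and 9.60%): HSP90AA1 at -0.12 and CHORDC1 at -0.17 were added as lower and HSPD1 at 0.11 as higher.

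SERPINH1 had 6.42, 5.01 and 5.42 CPM in knockout cells labelled prexasertib and 11.5, 11.22 and 11.5 CPM in those labelled DMSO. The groups were far apart, and the labelled prexasertib level was 0.492 times the labelled DMSO level (log2 difference -1.02, SE 0.10, edgeR adjusted p = 2.6e-08). HSPB1 had 27.4, 27.0 and 24.5 CPM, against 31.7, 33.3 and 33.3 CPM, without overlap (difference -0.32, SE 0.07, edgeR adjusted p = 0.0027). HSF1 had 45.2, 47.2 and 42.1 CPM, against 48.5, 53.5 and 54.9 CPM. Its groups were separate by a narrow margin, and the call (difference -0.22, SE 0.07, edgeR adjusted p = 0.034) was lost in 7 of 22 alternatives, among them the fits without replicate 3 of parent cells labelled DMSO, replicates 2 and 3 of knockout cells labelled DMSO, and replicates 1 and 3 of knockout cells labelled prexasertib, with values of -0.27 to -0.17 over the fits that left out 1 library.

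The HSP90, cochaperone and chaperonin genes did not pass the test in knockout cells. HSP90AA1 had 2141, 2042 and 2175 CPM in knockout cells labelled prexasertib, against 2366, 2325 and 2235 CPM in those labelled DMSO (difference -0.12, SE 0.05, edgeR adjusted p = 0.15). CHORDC1 had 132, 131 and 138 CPM, against 155, 151 and 146 CPM (difference -0.17, SE 0.06, edgeR adjusted p = 0.086). In both the labelled prexasertib libraries lay below the labelled DMSO libraries without overlap, yet the difference missed the threshold. The CHORDC1 difference was called without replicate 1 of either parent group. Across the 10 genes, 8 had groups that did not overlap, beside 34.3% of all genes tested. HSPD1, HSP90AB1, HSPE1, AHSA1 and HSF2 differed by 0.10, 0.04, 0.01, 0.01 and 0.12 on the log2 scale, with SEs of 0.05 to 0.06 and edgeR adjusted p values of 0.18 to 0.95.

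The difference between treatments differed between the lines for 8 of the 10 genes. As the knockout difference less the parent difference, 7 were lower and 1 higher, where 7.32% of all genes tested were called lower and 9.53% higher. The median was -0.50 on the log2 scale, against -0.03 over all genes tested. For SERPINH1 the labelled prexasertib and DMSO libraries stood in opposite order in the lines, with differences of -1.02 in knockout cells and 0.80 in parent cells, and the interaction was -1.82 (SE 0.14, edgeR adjusted p = 4.5e-10). HSPB1 was likewise lower in knockout cells (-0.32) and higher in parent cells (0.31), with an interaction of -0.63 (SE 0.10, edgeR adjusted p = 5.5e-05).

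For HSP90AA1 and the cochaperone genes the parent difference was larger in size than the knockout difference. The interaction was -0.68 for HSP90AA1 (SE 0.08, edgeR adjusted p = 4.6e-07), with -0.12 in knockout cells and 0.55 in parent cells. It was -0.67 for CHORDC1 (SE 0.09, edgeR adjusted p = 1.1e-05) and -0.53 for AHSA1 (SE 0.08, edgeR adjusted p = 1.3e-05). HSPE1 and HSPD1 had interactions of -0.47 and -0.28 (SE 0.08 each, edgeR adjusted p = 1.1e-04 and 0.014), and that of HSPD1 was lost without replicate 2 of parent cells labelled DMSO, replicate 3 of parent cells labelled prexasertib, or replicate 1 of either knockout group (values of -0.30 to -0.21). HSF2 was the gene with a positive interaction, 0.26 (SE 0.08, edgeR adjusted p = 0.026), also lost in 6 alternatives, among them the fits without replicate 3 of either DMSO group or replicate 1 of knockout cells labelled prexasertib. HSP90AB1 (-0.11) and HSF1 (-0.15) did not pass, with edgeR adjusted p values of 0.38 and 0.34. Without replicate 1 of parent cells labelled prexasertib the HSP90AB1 interaction was called too, at -0.15, which made 8 lower and 1 higher (background 9.05% and 12.3%). Under the library names each of these interactions changes sign.

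**Figure D2:**
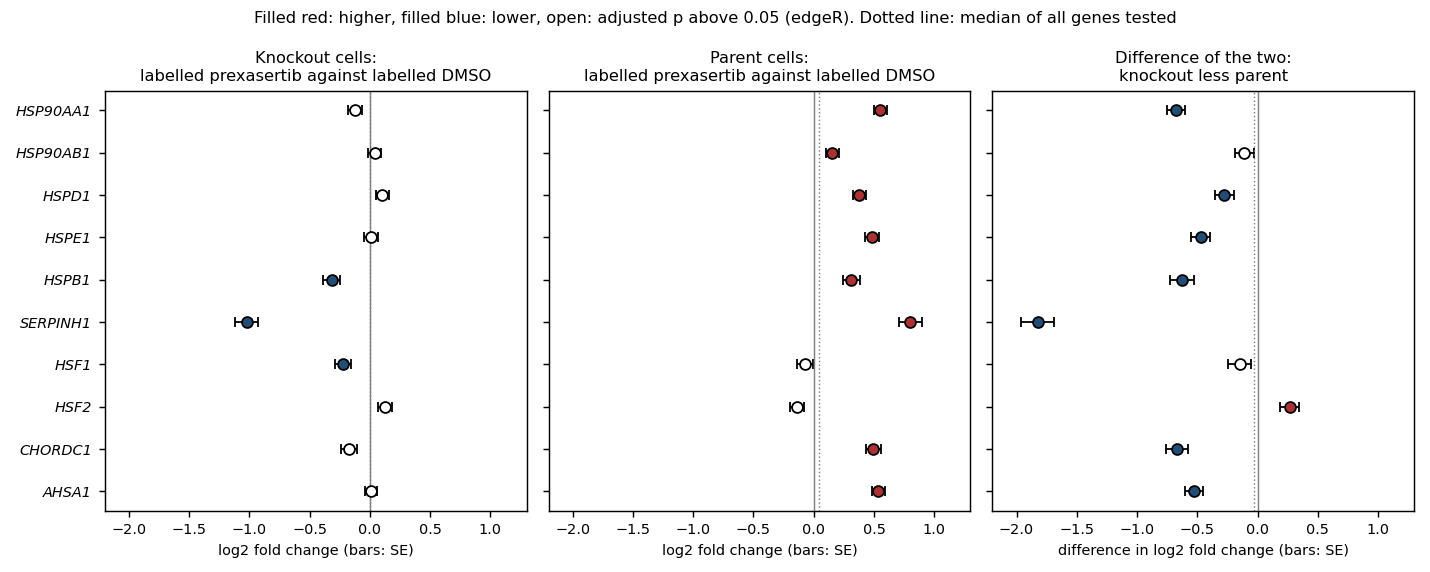
Log2 difference of labelled prexasertib against labelled DMSO for each gene in knockout cells (left) and parent cells (middle), and the difference of these, knockout less parent (right); points are edgeR estimates, bars the SE, filled points passed an adjusted p of 0.05 (red higher, blue lower), and the dotted line is the median of all genes tested. In knockout cells 3 points are filled blue, with SERPINH1 at -1.02 the farthest from 0, and in parent cells 8 are filled red.

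The lines themselves differed in the labelled DMSO libraries. There, knockout cells had more RNA than parent cells of 8 of the 10 genes and less of 1, where 19.6% of all genes tested were called higher and 20.4% lower. The median over the 10 genes was 0.45, against -0.0057 over all genes tested. The groups did not overlap for 9 of the 10, beside 53.6% of all genes tested. Under the library names this comparison is the one under the inhibitor. SERPINH1 had 11.5, 11.22 and 11.5 CPM in knockout cells labelled DMSO, against 6.26, 6.36 and 6.42 CPM in parent cells labelled DMSO, a difference of 0.85 (SE 0.10, edgeR adjusted p = 8.2e-08). HSP90AA1 averaged 2308 ± 67.0 CPM, against 1466 ± 28.6 CPM (SD, n = 3 each), a difference of 0.66 (SE 0.05, edgeR adjusted p = 3.0e-10). AHSA1, HSPE1, HSPB1, HSPD1, CHORDC1 and HSP90AB1 were higher in knockout cells by 0.57, 0.55, 0.48, 0.43, 0.42 and 0.21. HSF2 was lower, at -0.15 (SE 0.06, edgeR adjusted p = 0.039), a call that was lost without any of replicates 1 and 3 of parent cells labelled DMSO, 2 and 3 of knockout cells labelled DMSO and 1 of knockout cells labelled prexasertib, and that turned to 0.12 on the log2(TPM + 1) scale, where the median of all genes was 0.15. HSF1 did not pass (0.05).

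In the labelled prexasertib libraries, which hold the solvent comparison under the library names, fewer of these genes were called. Knockout cells were higher than parent cells for 1 gene and lower for 2, where 14.5% of all genes tested were called higher and 13.5% lower, and the groups did not overlap for 4 of the 10, beside 38.1% of all genes tested. SERPINH1 had 6.42, 5.01 and 5.42 CPM in knockout cells, against 9.95, 12.1 and 11.15 CPM in parent cells (difference -0.98, SE 0.10, edgeR adjusted p = 2.5e-08). CHORDC1 was lower, with a difference of -0.25 (SE 0.06, edgeR adjusted p = 0.0048), and HSPD1 higher by 0.16 (SE 0.05, edgeR adjusted p = 0.034). The HSPD1 call was lost without replicate 3 of either DMSO group or replicate 1 or 3 of knockout cells labelled prexasertib. Without replicate 1 of parent cells labelled prexasertib HSPB1 was called lower as well, at -0.20. HSP90AA1 averaged 2119 ± 69.4 CPM in knockout cells, against 2150.3 ± 141 CPM in parent cells (SD, n = 3 each), and did not pass (-0.02, SE 0.05, edgeR adjusted p = 0.82). Parent cells labelled DMSO were thus the group with the lowest mean of HSP90AA1, AHSA1, CHORDC1, HSPD1, HSPE1, HSPB1 and HSP90AB1.

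The files also count reads in introns, which come largely from transcripts that are not yet spliced. The intronic share of a gene's reads, intronic over intronic plus exonic, was lower in knockout cells labelled prexasertib than in knockout cells labelled DMSO for 8 of the 10 genes without overlap of the groups and higher for 1, where 13.4% of 16355 genes were lower and 13.8% higher without overlap. With 3 libraries against 3, the smallest p of the exact two-sided permutation test is 0.1, and these 9 genes had that value. The share of all reads in introns was 25.4 to 26.0% in knockout libraries labelled prexasertib and 24.9 to 25.8% in those labelled DMSO. HSP90AA1 had an intronic share of 8.45, 8.29 and 8.06% in knockout cells labelled prexasertib and 12.99, 12.98 and 12.98% in those labelled DMSO. The libraries of each group agreed closely and the groups were far apart. CHORDC1 had 39.1, 39.2 and 38.2%, against 46.5, 47.4 and 47.4%, and AHSA1 24.2, 24.7 and 24.3%, against 30.6, 32.0 and 30.9%. HSPE1 averaged 13.4 ± 0.348% in knockout cells labelled prexasertib and 19.0 ± 0.602% in those labelled DMSO, and HSPD1 38.6 ± 0.524% and 44.5 ± 0.406% (SD, n = 3 each). Of the intronic reads of HSPD1, 65.2% lay outside other genes, and on reads outside other genes its share was 28.4 ± 0.647% in knockout cells labelled prexasertib and 34.3 ± 0.616% in those labelled DMSO. None of the intronic reads of HSPE1 lay outside other genes, so its share is uncertain. Of those of AHSA1 99.4% did, and of those of the other 7 genes, HSP90AA1 among them, 100%. The shares of HSP90AB1, HSPB1 and HSF1 differed by -1.66, -0.497 and -2.19 percentage points. SERPINH1 was the exception that was higher, 51.0 ± 0.771% against 46.6 ± 1.12%, and HSF2 had groups that overlapped.

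**Figure D3:**
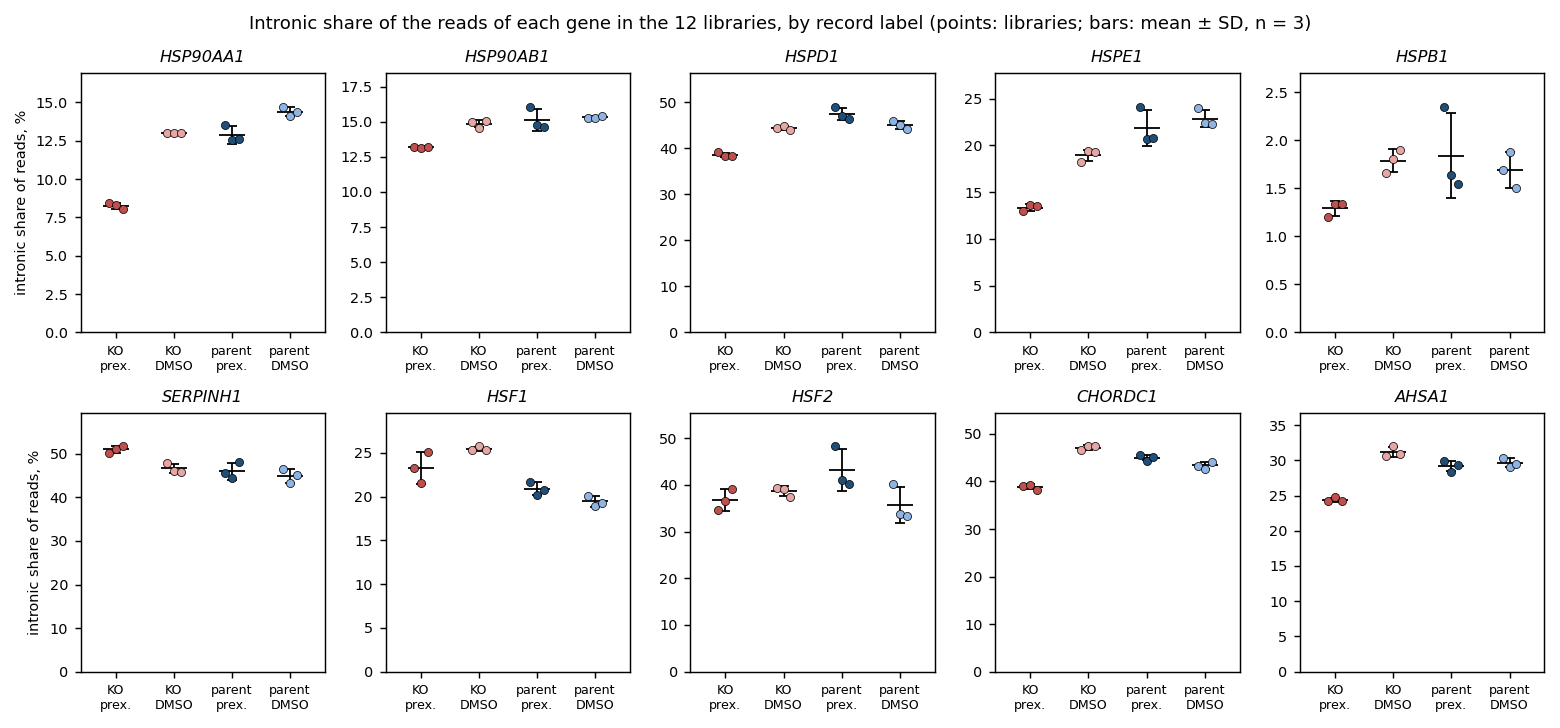
Intronic share of the reads of each gene, in percent and from 0, in the 12 libraries grouped by record label as in the plot of exonic levels; points are libraries and bars the mean ± SD (n = 3). For HSP90AA1 the libraries of knockout cells labelled prexasertib lie at 8.06 to 8.45%, below the other 9 libraries.

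In parent cells labelled prexasertib the intronic share was lower without overlap for 1 gene, HSP90AA1, and higher for 3, HSPD1, HSF1 and CHORDC1, where 4.24% of genes were lower and 32.3% higher without overlap. HSP90AA1 had 13.6, 12.5 and 12.6% in parent cells labelled prexasertib and 14.7, 14.1 and 14.4% in those labelled DMSO. Without replicate 1 of the labelled prexasertib group, 3 genes were lower (HSP90AA1, HSP90AB1 and HSPE1) and the same 3 higher, where 9.78% of genes were lower and 35.7% higher. Again without replicate 1, knockout cells labelled prexasertib had a lower share than parent cells labelled prexasertib for 8 genes and a higher share for 2. Of all genes 23.6% were lower and 14.4% higher in this way. Between the labelled DMSO groups 3 were lower and 3 higher in knockout cells without overlap, with no share over all genes at hand. Whether the treatment difference in this share differed between the lines was not tested.

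Intronic reads were also tested by themselves with edgeR, among 19852 genes, a test added after the shares had been seen. In knockout cells, 6 of the 10 genes had fewer intronic reads in the labelled prexasertib libraries and none had more, where 6.15% of genes were called lower and 5.83% higher. The differences on the log2 scale were -0.84 for HSP90AA1 (SE 0.06, edgeR adjusted p = 4.3e-09) and -0.65 for CHORDC1 (SE 0.06, edgeR adjusted p = 1.8e-07), genes whose exonic reads had not passed. SERPINH1, HSPE1, AHSA1 and HSF1 were lower too, with -0.76, -0.58, -0.47 and -0.39. The median over the 10 genes was -0.52, against 0.01 over all genes tested on intronic reads. In parent cells, 4 of the 10 had more intronic reads in the labelled prexasertib libraries and none fewer, where 15.6% of genes were called lower and 30.8% in either direction: SERPINH1 rose by 0.67, CHORDC1 by 0.38, HSPD1 by 0.32 and AHSA1 by 0.30. HSP90AA1 differed by 0.16 there (SE 0.06, edgeR adjusted p = 0.056), against an exonic difference of 0.55. These directions, too, turn round under the library names.

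The interaction on intronic reads passed for 6 genes, all lower, where 4.02% of genes were called lower and 5.82% higher. It was -1.43 for SERPINH1 (SE 0.18), -1.03 for CHORDC1 (SE 0.09) and -0.999 for HSP90AA1 (SE 0.09), with edgeR adjusted p values of 2.0e-05, 1.2e-07 and 2.1e-07. AHSA1 and HSPE1 had -0.77 each and HSPD1 -0.56. Without replicate 1 of parent cells labelled prexasertib, the interaction again passed for 6 genes, all lower (background 6.58% lower and 7.91% higher), at -1.60 for SERPINH1, -1.04 for CHORDC1 and -0.998 for HSP90AA1. The counts then were 8 lower in knockout cells (21.7% of genes called in either direction) and 6 higher in parent cells (31.6%). On intronic reads, knockout cells labelled DMSO were higher than parent cells labelled DMSO for 6 genes (30.3% of genes called in either direction), and knockout cells labelled prexasertib lower than parent cells labelled prexasertib for 5 (9.16% of genes called lower), which was 6 without that library (9.78%). HSPB1 has few intronic reads, and its intronic differences have an SE of 0.30 in knockout cells and 0.30 in parent cells.

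**Figure D4:**
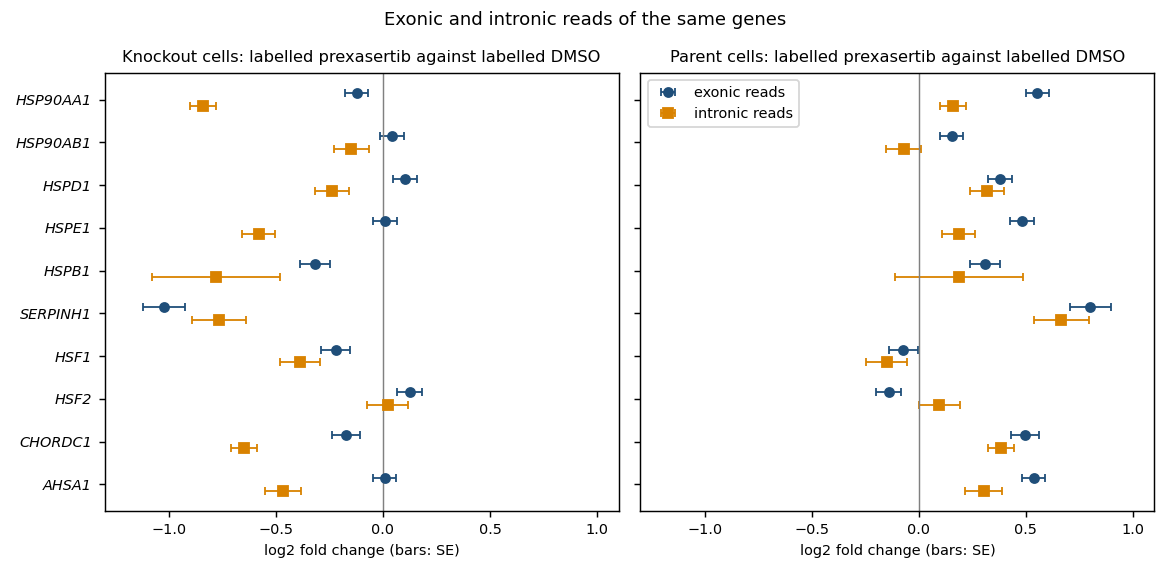
Log2 difference of labelled prexasertib against labelled DMSO for exonic reads (blue circles) and intronic reads (orange squares) of the same genes, in knockout cells (left) and parent cells (right), with bars for the SE of the edgeR estimates. In knockout cells the intronic value lies below the exonic value for 9 of the 10 genes, with SERPINH1 the exception. In parent cells it also does for 9 of the 10, with HSF2 the exception, and by smaller distances for HSP90AA1 and CHORDC1. The 2 kinds of reads were fitted separately, each scaled to its own library totals, so this order is not that of the intronic share. In parent cells labelled prexasertib the share of HSPD1, HSF1 and CHORDC1 was higher. The share of all genes with this order was not computed.

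Genes around the members were read in the same fit. Among 93 related genes in 9 lists, of which 81 passed the filter on low counts, 3 were higher and 15 lower in knockout cells labelled prexasertib than in those labelled DMSO, beside 6.11% and 6.83% of all genes tested. In parent cells 34 were higher and 7 lower, beside 18.2% and 18.2%, and the interaction was higher for 3 and lower for 24, beside 9.53% and 7.32%. These shares of all genes are the background of each list below. The lists overlap, so their counts are not independent. FKBP4 and STIP1 are in both the HSP90 cochaperone list and the HSP70 system list. TRAP1 is in both the organelle HSP90 list and the mitochondrial list. The median log2 difference over the 81 was -0.02 in knockout cells, 0.11 in parent cells and -0.16 for the interaction. Over all genes tested these medians were -0.0020, 0.04 and -0.03.

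Of 18 other HSP90 cochaperones, 9 were higher and 2 lower in parent cells labelled prexasertib (18.2% of all genes each way), and the interaction was lower for 5 (7.32% of all genes), PTGES3, STIP1, FKBP4, UNC45A and STUB1 (list medians 0.16 in parent cells and -0.14 for the interaction). FKBP4, the immunophilin that links HSP90 to steroid receptors, averaged 183 ± 1.45 and 168 ± 5.77 CPM in knockout cells labelled prexasertib and DMSO, and 156 ± 5.76 and 104 ± 2.5 CPM in the parent groups (SD, n = 3 each). Its interaction was -0.47 (SE 0.07, edgeR adjusted p = 1.7e-05). That of UNC45A, a myosin-folding cochaperone, was -0.48 (SE 0.08, edgeR adjusted p = 1.1e-04). Both organelle relatives of HSP90 were higher in parent cells labelled prexasertib, HSP90B1 of the endoplasmic reticulum by 0.40 and TRAP1 of mitochondria by 0.31, and the interaction passed for TRAP1 at -0.26 (edgeR adjusted p = 0.032) and not for HSP90B1.

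The cytosolic chaperonin TRiC, which folds actin and tubulin, had none of its 8 subunit genes called in knockout cells labelled prexasertib against DMSO. In parent cells 4 of the 8 were higher and none lower, and the interaction was lower for 3, TCP1 at -0.31 (SE 0.07), CCT4 at -0.28 (SE 0.07) and CCT3. The medians of the 8 were 0.16 in parent cells and -0.14 for the interaction. None of the 6 subunit genes of prefoldin, which hands nascent chains to TRiC, was called in either line or in the interaction. PFDN1 and PFDN5 had interactions of -0.13 and -0.13, and the medians of the 6 were 0.06 in parent cells and -0.11 for the interaction.

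Among other mitochondrial chaperones, HSPA9, the HSP70 of the matrix, averaged 304 ± 7.69 and 299.6 ± 1.43 CPM in knockout cells labelled prexasertib and DMSO, and 297 ± 24.8 and 369.7 ± 7.30 CPM in the parent groups. It was lower in parent cells labelled prexasertib, with a difference of -0.31 and an interaction of 0.33 (SE 0.08, edgeR adjusted p = 0.0026). GRPEL2, a nucleotide exchange factor of that HSP70, was lower there too, with a difference of -0.58 and an interaction of 0.60 (SE 0.09, edgeR adjusted p = 2.5e-05). In the list of 10 mitochondrial chaperones and proteases, none was called in knockout cells, and 1 was higher (TRAP1) and 2 lower in parent cells labelled prexasertib. Its medians were 0.06 in parent cells and -0.03 for the interaction.

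Of 17 genes of the HSP70 system and other HSF1 targets, 7 were lower and none higher in knockout cells labelled prexasertib, 12 were higher and 2 lower in parent cells labelled prexasertib, and the interaction was lower for 10. The medians were -0.07 in knockout cells, 0.29 in parent cells and -0.29 for the interaction. HSPA6 and HSPA1A, stress-inducible HSP70 genes, had interactions of -2.21 (SE 0.09) and -1.38 (SE 0.08). Both are uncertain because near-identical copies may share their reads, which was not measured. Of 8 other genes listed under small heat shock proteins by symbol, 4 passed the filter. CRYAB was lower in knockout cells labelled prexasertib, HSPB11 was higher in parent cells labelled prexasertib, and the interaction passed for none of the 4 (list medians -0.15 in parent cells and -0.20 for the interaction). Of 9 other HSF genes and HSF regulators 8 passed it, and 2 were higher and 1 lower in parent cells labelled prexasertib, near the 18.2% of all genes called each way (list medians -0.06 in parent cells and -0.21 for the interaction). SIRT1, a deacetylase that prolongs DNA binding by HSF1, averaged 26.8 ± 0.474 and 30.9 ± 1.06 CPM in knockout cells labelled prexasertib and DMSO, and 22.5 ± 0.704 and 46.0 ± 1.97 CPM in the parent groups, with an interaction of 0.82 (SE 0.08, edgeR adjusted p = 3.5e-08). HSBP1, whose protein binds HSF1 trimers, was higher by 0.21 in parent cells labelled prexasertib, and its interaction of -0.20 did not pass (edgeR adjusted p = 0.087).

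Collagen folding and modification genes, the partners and clients of SERPINH1, were tested for 11 of 18. In knockout cells labelled prexasertib 1 was higher and 4 lower, in parent cells labelled prexasertib 6 were higher and none lower, and the interaction was lower for 6. The medians were -0.28 in knockout cells, 0.27 in parent cells and -0.55 for the interaction. P4HB, the disulfide isomerase that is also a subunit of prolyl hydroxylase, had an interaction of -0.44 (SE 0.08, edgeR adjusted p = 2.3e-04). PLOD3, a lysyl hydroxylase, averaged 11.4 ± 0.917 and 14.22 ± 0.746 CPM in knockout cells labelled prexasertib and DMSO, and 11.5 ± 1.2 and 8.67 ± 0.140 CPM in the parent groups, with an interaction of -0.73 (SE 0.12, edgeR adjusted p = 1.3e-04). COL1A2, the fibroblast collagen gene, had no reads in 3 of the 4 groups, and the fibroblast markers summed to at most 1.28 CPM in any library.

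The genes whose pattern over the 4 group means was most like that of HSP90AA1, among 13929 genes whose log2 CPM averaged 1 or more, were PPP1R26P1, ASIC1 and AL035252.1, at distances of 0.0247, 0.0343 and 0.0768 on the centred log2 scale, with group means of 1.52 to 8.96 CPM. Of the other members AHSA1 was nearest to HSP90AA1, at 0.0949, and HSPE1 next, at 0.108. The genes most like SERPINH1 were the HSP70 genes HSPA1L, HSPA6 and HSPA1B, at 0.289, 0.320 and 0.359. HSPA6 and HSPA1B have near-identical copies. Reads shared with other HSP70 genes were not measured, so the values of all of them are uncertain. HSPA6 averaged 31.4, 86.2, 75.9 and 45.0 CPM in knockout cells labelled prexasertib, knockout cells labelled DMSO, parent cells labelled prexasertib and parent cells labelled DMSO. HSPB1 was the nearest other member to SERPINH1, at 0.648. Such a distance over 4 means is a description, with no test.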

How the data were processed

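Per the labels' protocols, the 12 libraries were made from total RNA and run together on a HiSeq4000. The submitters' processing notes name Trim Galore 0.6.2, Trimmomatic 0.39, STAR 2.5.4a, Picard 2.9.2 and hg19. The counter, annotation, strand setting and handling of duplicates are not given in the sources used here, so antisense reads cannot be told apart. The files as deposited by the authors hold read counts per gene, whole, exonic and intronic, and exonic and intronic outside other genes, and the authors' TPM (length-scaled abundance), per the file headers. Genes missing from a file were taken as 0, and 36 copies on the Y pseudoautosomal region were left out. Large counts are kept to 6 digits. Coordinates had 1 added to starts and ends, after comparison of 37 mitochondrial genes with the reference annotation.

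Samples were grouped by record label. The test on exonic counts was the robust quasi-likelihood F test of edgeR 4.0.16 (R 4.3.3), with TMM factors and 4 group means over 12 libraries. A filter (filterByExpr, at least 10 counts) left 23045 genes. P-values were Benjamini-Hochberg adjusted over all genes tested and called at 0.05. CPM uses TMM-scaled library sizes. Calls of the 5 contrasts were also run on data simulated from the means and spread of this fit, with an outcome not given here. Intronic shares were compared with exact two-sided permutation tests, and intronic reads with edgeR. The members and the gene lists were chosen with earlier results of these data known. The genes named were the members, for each related list the 2 genes with the smallest interaction p at a mean log2 CPM of at least 1, SLFN11, and for HSP90AA1 and SERPINH1 the 3 genes with the nearest pattern. Genes named beside a count of 5 or fewer were named after their values were seen. Alternatives were RLE size factors, DESeq2 1.42.0, no filter, a mean CPM of at least 1, all reads, reads outside other genes, limma 3.58.1 on log2(TPM + 1), intronic reads, only the groups compared, a replicate block and each library left out. Promoters are RefSeq, GRCh38.p14. Same-numbered libraries of the 2 treatments did not deviate together, as given with the alternatives. Within groups, chi-square per degree of freedom between libraries was 4.52 to 37.5, so none was counted as a copy of another. Figures were drawn with matplotlib 3.10.9 in Python 3.11.15.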

Additional observations from a re-analysis of the deposited data

Results flagged for a closer look

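The difference between labelled prexasertib and labelled DMSO libraries itself differed between knockout and parent cells for 8 of the 10 genes, by the interaction term of the edgeR quasi-likelihood fit. It was lower for 7, beside 7.32% of all genes tested, and higher for 1, beside 9.53%. The interaction, as the knockout difference less the parent difference on the log2 scale, was -1.82 for SERPINH1, -0.68 for HSP90AA1, -0.67 for CHORDC1, -0.63 for HSPB1, -0.53 for AHSA1, -0.47 for HSPE1 and -0.28 for HSPD1. It was 0.26 for HSF2. The call was lost in 4 of the 12 fits that left out 1 library for HSPD1 and in 3 for HSF2, and in none for the other 6 genes. In SERPINH1 and HSPB1 each line's own difference passed the test, and these differences had opposite signs. All of these signs turn round if the library names, and not the record labels, give the treatment.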

How the results depend on the processing

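The 10 genes gave 50 results over the 5 comparisons, and 1085 values under the alternatives. Of these values 971 kept their direction and their side of the threshold, 53 lost their call, 29 gained one and 32 turned direction. Of the 31 called results, 16 held under every alternative run, 23 under every one other than intronic reads, and 25 whichever library was left out. The causes of the changes below were not tested.

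In knockout cells, the number called higher was 1 with only the groups compared and 0 to 1 with a library left out, and the number lower was 6 on intronic reads, 5 with only the groups compared and 2 to 5 with a library left out. In parent cells, the number called higher was 4 on intronic reads, and the number called lower was 1 at a mean CPM of at least 1 and 0 to 1 with a library left out. For the lines in labelled DMSO, the number lower was 0 without the filter, on all reads, on TPM, on intronic reads and 0 to 1 with a library left out. For the lines in labelled prexasertib, the number higher was 0 on all reads, on intronic reads and with only the groups compared, 5 on TPM, and 0 to 1 with a library left out. The number lower there was 1 on TPM and 5 on intronic reads. For the interaction, the number higher was 0 on all reads, TPM and intronic reads and 0 to 1 with a library left out.

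The directions that turned were as follows, on the log2 scale. In knockout cells, HSP90AB1, HSPD1, HSPE1 and AHSA1 were -0.15, -0.24, -0.58 and -0.47 on intronic reads, and HSPD1, HSPE1 and AHSA1 were -0.0278, -0.0756 and -0.11 on all reads. With a library left out, HSPE1 ranged over -0.00845 to 0.0268 and AHSA1 over -0.00969 to 0.0357. In parent cells, HSP90AB1 was -0.0712 and HSF2 0.10 on intronic reads, and on TPM HSF1 was 0.0684 and HSF2 0.0047. For the lines in labelled DMSO, HSF2 was 0.12 on TPM, and HSF1 ranged over -0.0267 to 0.11 with a library left out. For the lines in labelled prexasertib, HSP90AA1, HSPD1, HSPE1 and HSF1 were 0.0034, -0.0021, -0.0164 and 0.00082 on all reads. HSP90AA1, HSPB1 and HSF1 were 0.13, 0.00082 and 0.0511 on TPM. HSP90AB1, HSPD1, HSPE1, HSF1, HSF2 and AHSA1 were -0.0098, -0.25, -0.65, 0.23, -0.15 and -0.19 on intronic reads. With a library left out, HSP90AA1 ranged over -0.0447 to 0.0389 and AHSA1 over -0.00725 to 0.0775. The HSF2 interaction was -0.0743 on intronic reads.

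Replicate numbers gave no pairing: same-numbered libraries of the 2 treatments had correlations of deviations of -0.02, 0.04 and -0.09 in knockout cells and 0.15, -0.08 and 0.08 in parent cells. With the replicate block, 3 genes were lower in knockout cells, where CHORDC1 was called at -0.17 and HSF1 was not, and 8 were higher in parent cells. HSPE1 had no value for reads outside other genes, and the interaction none with only the groups compared. Precision is limited by 3 libraries a group and, for SERPINH1, by 288 to 902 exonic reads. On reads outside other genes, which 9 genes have, the intronic share was lower for 7 and higher for 1 in knockout cells (14.7% and 13.8% of 12507 genes), and lower for 1 and higher for 3 in parent cells (3.24% and 35.9%). This setting, the intronic alternative and its version without replicate 1 of parent cells labelled prexasertib were chosen after seeing the data.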
